A study of Danio rerio with 12 samples.

Results

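Transcript levels of 6 hypoxia-inducible or oxygen-sensing genes, ankrd37, ero1a, bnip3lb, vegfaa, egln3 and hif1ab, were followed in whole zebrafish embryos (Danio rerio) kept in a solvent or in one of a pair of SGLT2 inhibitors. The genes were taken by symbol, and all 6 were among the 14134 genes of the normalized table. ankrd37 was chosen by its measured levels, which were low in the empagliflozin pools, so its values in those pools are given as a description with no test. RNA came from 12 pools of 5 embryos, 4 pools for each of 3 groups. Embryos positive for GFP (the labels name no transgenic line) were freed from the chorion at 23 hours after fertilization. They were then kept in DMSO (control), in 50 µM empagliflozin or in 50 µM canagliflozin until RNA was taken at 27 hours, which is 4 hours of treatment. The labels give neither the DMSO concentration nor the clutch of a pool. All 12 markers of embryonic tissues that were looked up and found in the table (muscle, neuron, neural crest, vessel, blood, liver, skin and others) had reads in every pool.

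Cells respond to low oxygen through HIF, a transcription factor made of an oxygen-labile alpha subunit and a stable beta subunit. When oxygen is present, prolyl hydroxylases of the EGLN family mark the alpha subunit, the VHL protein binds the mark, and the subunit is degraded. When oxygen is scarce the alpha subunit persists and raises transcription of genes for glycolysis, blood vessel growth, mitochondrial turnover and protein folding, and also of EGLN3 itself, which forms a feedback loop. The control of HIF alpha lies largely in protein stability, so that the transcript level of an alpha subunit is not a measure of HIF activity.

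Levels are given as CPM, reads per gene brought to a common library size, times a scaling factor for each library. The labels do not name this factor. It was taken to be TMM, which corrects for differences in RNA composition, and the figures call the levels TMM-scaled CPM. That reading was not checked. Libraries held 16149682 to 27842375 reads, so that 1 read was 0.0363 to 0.0621 CPM. Differences were tested in limma on log2(CPM + 1) over the 11964 genes with a mean of at least 1 CPM, with Benjamini-Hochberg adjustment over all of them and a threshold of 0.05. The added 1 makes differences of scarce genes smaller on this scale than as a ratio of means. Control 4 and canagliflozin 4 deviated from their groups in a like way: the correlation of their deviations across genes was 0.59, against at most 0.33 for the pairs of pools with different numbers. Results that rest on these pools are given with and without them. In whole embryos, fewer cells of a type and less RNA per cell cannot be told apart.

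With empagliflozin, the HIF alpha gene hif1ab was higher than with DMSO and than with canagliflozin, while bnip3lb was lower than with canagliflozin. Against control, 1 of the 5 members tested passed, hif1ab, where 13.3% of all genes tested were called, 6.87% higher and 6.41% lower. Against canagliflozin, hif1ab passed upwards and bnip3lb downwards, where 25.5% of all genes were called, 12.4% higher and 13.1% lower. ero1a passed there too, but it reached the minimum of 1 CPM through the canagliflozin pools, in the direction tested, and it is given apart from these. With canagliflozin against control, limma called 0 of 6 members and 0% of all genes, and 0 of the 6 had an unadjusted p under 0.05. An unadjusted p under 0.05 was found in limma for 3 of the 5 members tested with empagliflozin against control, beside 32.4% of all genes. For empagliflozin against canagliflozin it was found for 4 of 5, ero1a among them, beside 39.2%. With canagliflozin against control the share of all genes was 7.73%. The members were chosen with earlier results of these data known. With canagliflozin against control, edgeR also called 0 of 6 members, and DESeq2 0 of the 5 members for which it gave an adjusted p. Both contrasts with control share the same 4 control pools.

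The groups themselves were also compared for overlap. Against control, hif1ab lay higher in all empagliflozin pools, and ero1a and, as chosen, ankrd37 lower in all of them. Of all genes tested, 19.1% had groups that did not overlap in that comparison, 9.55% higher and 9.51% lower. Against canagliflozin, vegfaa was higher in all empagliflozin pools and bnip3lb lower. ankrd37, as chosen, and ero1a, which reached the minimum of 1 CPM through the canagliflozin pools, were also lower in all of them. In that comparison 25.6% of all genes did not overlap, 11.9% higher and 13.7% lower. Canagliflozin and control overlapped for all 6 members, and 4.49% of all genes did not overlap there, 2.66% higher and 1.83% lower.

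**Figure D1:**
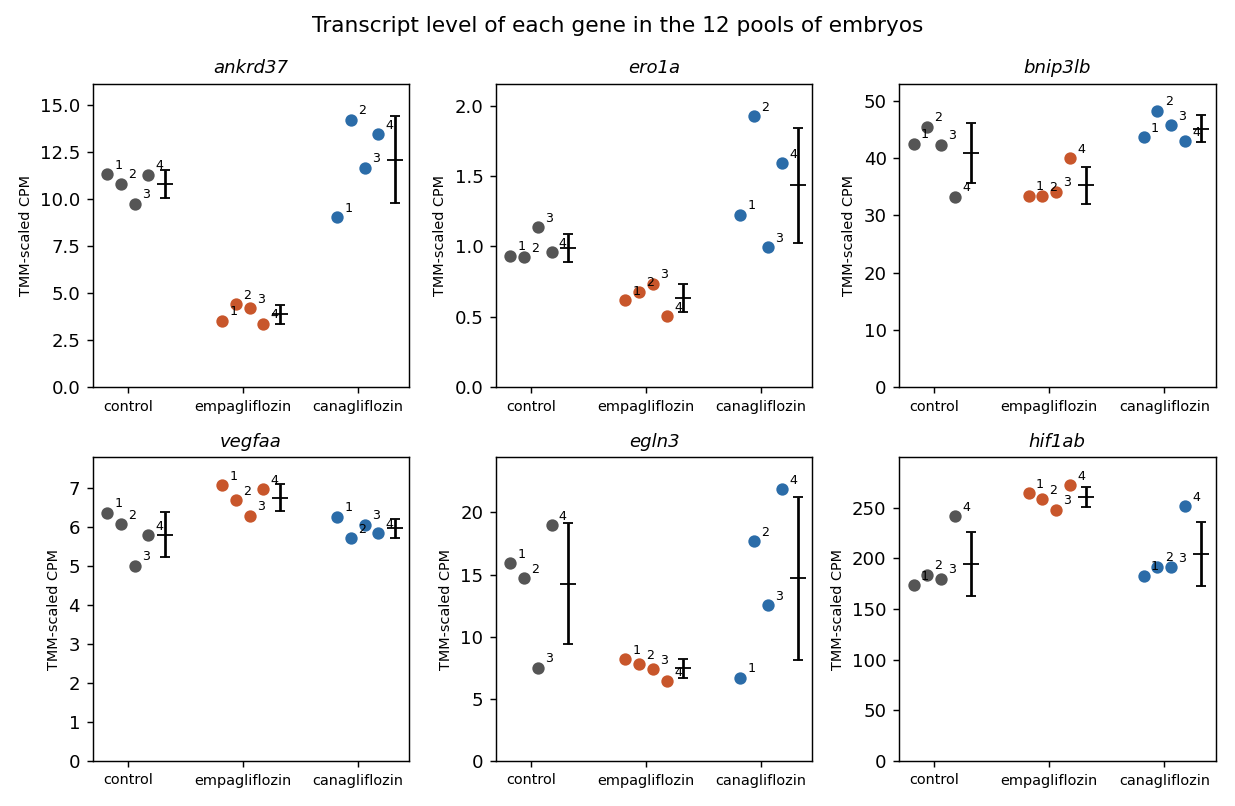
TMM-scaled CPM of the 6 genes in each of the 12 pools, with the pool number beside each point, and the mean ± SD of the 4 pools of a group as a bar at its right. The empagliflozin pools lie below all others for ankrd37 and ero1a. For hif1ab they lie above all controls, of which control 4 (242 CPM) stands nearest. Canagliflozin 4 (251 CPM) lies within the empagliflozin values for hif1ab, and the other canagliflozin pools lie below them.

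hif1ab encodes one of the zebrafish HIF-1 alpha proteins (Entrez 393202). Its level was 173, 184, 180 and 242 CPM in controls 1 to 4, with a mean of 195 ± 31.6 (SD, n = 4). In empagliflozin it was 264, 258, 248 and 272 CPM, a mean of 261 ± 10.2 (n = 4). In canagliflozin it was 183, 192, 191 and 251 CPM, a mean of 204 ± 31.6 (n = 4). All empagliflozin pools lay above all controls, and above canagliflozin 1 to 3, but canagliflozin 4 lay within the empagliflozin values. The ratio of means was 1.34 against control and 1.28 against canagliflozin.

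The rise of hif1ab against control was 0.43 on the log2 scale (95% interval 0.20 to 0.66), with a limma adjusted p of 0.0224. Against canagliflozin it was 0.36 (0.13 to 0.59), with a limma adjusted p of 0.0233. Canagliflozin against control differed by 0.07 (-0.16 to 0.30; limma adjusted p 0.916), so that a difference of up to 0.30 in size is within the interval. In the authors' deposited table the false discovery rate was 0.0199 against control and 0.0573 against canagliflozin. Leaving out single pools took the call away: against control the limma adjusted p was 0.0656, 0.0695 and 0.0728 without controls 1, 2 and 3, and 0.0529, 0.0547 and 0.0543 without empagliflozin 1, 2 and 4. Against canagliflozin it was 0.0783, 0.0656 and 0.0653 without canagliflozin 1, 2 and 3, and 0.0539 and 0.0564 without empagliflozin 1 and 4. Without control 4 and canagliflozin 4 together the differences were 0.54 and 0.46, with limma adjusted p of 5.19e-06 and 1.05e-05. Those pools had the highest hif1ab of their groups, so leaving them out enlarges both differences by construction. Calls over all genes also rose without them, from 1589 to 4246 against control and from 3049 to 4887 against canagliflozin.

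Neuron markers, like hif1ab, had their highest mean level in empagliflozin. The summed level of 9 markers was 1670 to 1796 CPM in empagliflozin, 1179 to 1509 in control and 1183 to 1460 in canagliflozin. Of these 9, 7 rose against control and 9 against canagliflozin, and every one had reads in all pools. Of all genes tested, 6.87% were called higher against control and 12.4% against canagliflozin. The highest sums among controls and among canagliflozin pools were those of control 4 (1509 CPM) and canagliflozin 4 (1460 CPM), which were also highest for hif1ab. Other orders differed: empagliflozin 1 had the highest sum of its group (1796 CPM) and empagliflozin 4 the highest hif1ab (272 CPM). Control 3 had the lowest sum among controls (1179 CPM) and control 1 the lowest hif1ab (173 CPM). The part of these markers in the hif1ab result was not tested.

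The paralog hif1aa, the second HIF-1 alpha gene of zebrafish, lay at 3.23 to 4.87 CPM over all pools and differed by 0.05 on the log2 scale between empagliflozin and control (limma adjusted p 0.803). epas1b, which encodes a HIF-2 alpha, lay at 5.00 to 11.2 CPM and differed by 0.10 (limma adjusted p 0.702). hif1al, an alpha-like subunit, showed a narrow separation of its own. It was at 463 to 473 CPM in control, 441 to 469 in empagliflozin and 506 to 514 in canagliflozin. The canagliflozin pools lay above all others, but the fit called only the fall of empagliflozin against canagliflozin, by 0.16 on the log2 scale (limma adjusted p 0.0395), and not the difference of 0.12 from control (0.635).

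egln3 encodes the HIF prolyl hydroxylase PHD3 (Entrez 406602), an oxygen sensor that is itself raised by HIF. Its level was 15.9, 14.7, 7.49 and 19.0 CPM in controls 1 to 4, a mean of 14.3 ± 4.86 (n = 4). In empagliflozin it was 8.21, 7.76, 7.40 and 6.42 CPM, a mean of 7.45 ± 0.759 (n = 4). In canagliflozin it was 6.69, 17.7, 12.5 and 21.9 CPM, a mean of 14.7 ± 6.56 (n = 4). The empagliflozin pools were low and close together, while control 3 and canagliflozin 1 lay among them and the other 6 pools lay above. The group means of control and canagliflozin did not differ beyond their spread.

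egln3 did not pass in limma. The log2 difference from control was -0.79 (95% interval -1.39 to -0.19; limma adjusted p 0.0727), and from canagliflozin also -0.79 (-1.39 to -0.18; limma adjusted p 0.0526). The ratios of means were 0.522 and 0.507. In the authors' deposited table the false discovery rate was 0.0143 against control and 0.0152 against canagliflozin. With the groups compared alone in the fit it passed, with limma adjusted p of 0.0212 and 0.0332. With edgeR the adjusted p was 0.0513 against control and 0.0281 against canagliflozin. With DESeq2 it was 0.0544 and 0.0319. Against control egln3 also passed in limma without control 3, canagliflozin 1 or canagliflozin 4 (adjusted p 0.0476, 0.0348 and 0.0331), and against canagliflozin without control 3 or control 4 (0.0263 and 0.0420). Without canagliflozin 1 the log2 difference from canagliflozin was -1.09 (limma adjusted p 0.00913), and without control 4 and canagliflozin 4 together neither comparison passed (0.0672 and 0.0917). No other single pool left out gave a pass for egln3. The limma adjusted p rose to 0.158 against control without control 1, and to 0.141 against canagliflozin without canagliflozin 2. Of the 24 alternatives, egln3 passed in 5 against control and in 7 against canagliflozin.

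egln3 varied more within groups than nearly all genes. The pooled within-group SD was 0.51 on the log2 scale, against a median of 0.15 over all genes tested, and 99.5% of genes had a smaller one. For the other members it ran from 0.09 in vegfaa to 0.19 in ankrd37. The low pools, control 3 and canagliflozin 1, were those with the highest mmp9, a myeloid and wound-associated protease gene, at 92.0 and 67.2 CPM. Empagliflozin 3 (51.5 CPM of mmp9) and canagliflozin 2 (52.3) were also high in mmp9, against 4.87 to 13.7 in the other 8 pools, and canagliflozin 2 had egln3 at 17.7 CPM. The part of the state marked by mmp9 in the egln3 result was not tested.

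Of the other oxygen-sensing genes, egln1b, a further prolyl hydroxylase gene, was at 48.9 to 60.3 CPM in empagliflozin and 39.1 to 55.4 in control, a log2 difference of 0.24 (limma adjusted p 0.128). hif1an, which encodes the asparagine hydroxylase that blocks HIF coactivators, was at 43.4 CPM in control 3 and 62.4 to 84.9 in all other pools. vhl was at 4.97 to 7.84 CPM in empagliflozin, 6.51 to 9.99 in control and 8.76 to 10.1 in canagliflozin. It fell against canagliflozin by 0.52 on the log2 scale (limma adjusted p 0.0146), and the difference of -0.35 from control did not pass (0.0986). Without the members, 11 genes of HIF subunits and oxygen sensors were tested, and 0 passed against control by limma, edgeR or DESeq2. In limma 2 had an unadjusted p under 0.05, as did 32.4% of all genes. Against canagliflozin 2 of 11 fell, vhl and hif1al, and 0 rose. Of all genes tested, 13.3% were called against control and 25.5% against canagliflozin, where the 2 were 18.2% of the 11.

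ankrd37 encodes a small ankyrin repeat protein whose gene is a direct HIF target in mammalian cells (Entrez 793783). Its level was 11.3, 10.8, 9.76 and 11.3 CPM in controls 1 to 4, a mean of 10.8 ± 0.734 (n = 4). In empagliflozin it was 3.52, 4.41, 4.20 and 3.36 CPM, a mean of 3.87 ± 0.511 (n = 4). In canagliflozin it was 9.04, 14.2, 11.7 and 13.4 CPM, a mean of 12.1 ± 2.30 (n = 4). The highest empagliflozin pool stood well below the lowest of the other 8, while control and canagliflozin overlapped. Control 4 and canagliflozin 4 lay with their own groups for this gene.

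The mean of ankrd37 in empagliflozin was 0.359 of that in control, or 2.79 times lower, and 0.320 of that in canagliflozin, or 3.12 times lower. These are ratios of mean CPM. On the log2(CPM + 1) scale the same differences were -1.28 and -1.41. The pools rested on 189 to 271 reads in control, 67 to 97 in empagliflozin and 192 to 304 in canagliflozin. Summed over the 4 pools, the empagliflozin level was 3.84 CPM and the control level 10.8. The gene was chosen on its low empagliflozin values, so no interval is given for them. Canagliflozin against control, on which the gene was not chosen, differed by 0.13 on the log2 scale (95% interval -0.13 to 0.40; limma adjusted p 0.831).

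ero1a encodes the endoplasmic reticulum oxidoreductin that feeds disulfide bond formation (Entrez 393321), and its mammalian counterpart is raised by hypoxia. It was scarce: 0.935, 0.922, 1.14 and 0.959 CPM in controls 1 to 4, a mean of 0.988 with a coefficient of variation of 10.1% (n = 4). In empagliflozin it was 0.617, 0.679, 0.735 and 0.502 CPM, a mean of 0.633 with a coefficient of variation of 15.8% (n = 4). In canagliflozin it was 1.22, 1.93, 0.994 and 1.59 CPM, a mean of 1.43 ± 0.410 (n = 4). All empagliflozin pools lay below all others, and the lowest canagliflozin pool lay among the controls. Its mean over all pools was just above the minimum of 1 CPM for testing, and it reached that minimum through the canagliflozin pools.

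The fall of ero1a against canagliflozin was 0.56 on the log2(CPM + 1) scale: the difference was -0.56 (95% interval -0.85 to -0.27; limma adjusted p 0.00864), but the gene was admitted to the test by the group in which it was high. With no minimum, where all genes of the table were fitted, the limma adjusted p was 0.00372, and with a minimum of 5 CPM the gene was not tested. In the authors' deposited table the false discovery rate was 0.0239. With edgeR, which works on reads and adds no CPM, the log2 difference was -1.16. Against control the log2(CPM + 1) difference was -0.28 (-0.58 to 0.01; limma adjusted p 0.163) and the ratio of means 0.641. Canagliflozin against control gave 0.28 (-0.01 to 0.57; limma adjusted p 0.648) and a ratio of 1.45. Only 10 to 17 reads per pool stood behind the empagliflozin values, 16 to 23 behind control and 20 to 36 behind canagliflozin. The summed level had exact Poisson intervals of 0.475 to 0.822 CPM in empagliflozin, 0.784 to 1.22 in control and 1.16 to 1.70 in canagliflozin, for counting error only.

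The paralog ero1b, the other ER oxidoreductin gene, was at 13.6 to 16.1 CPM in empagliflozin, 15.9 to 17.7 in control and 14.2 to 17.8 in canagliflozin, and passed in none of the 3 comparisons (limma adjusted p 0.152, 0.971 and 0.178). Of 13 other genes of oxidative protein folding, which include the disulfide isomerases, limma, edgeR and DESeq2 each called 0 against control. In limma 4 of the 13 had an unadjusted p under 0.05, near the 32.4% of all genes, of which 13.3% were called. Against canagliflozin 1 fell, txndc5, by 0.19 on the log2 scale (limma adjusted p 0.0277), 7.69% of the 13 beside 25.5% of all genes.

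bnip3lb encodes a relative of BNIP3L, also called NIX, an outer mitochondrial membrane protein that marks mitochondria for mitophagy (Entrez 554650). Its level was 42.5, 45.5, 42.3 and 33.3 CPM in controls 1 to 4, a mean of 40.9 ± 5.28 (n = 4). In empagliflozin it was 33.4, 33.4, 34.1 and 39.9 CPM, a mean of 35.2 ± 3.17 (n = 4). In canagliflozin it was 43.7, 48.3, 45.8 and 42.9 CPM, a mean of 45.1 ± 2.40 (n = 4). Empagliflozin lay below every canagliflozin pool. Control 4 had the lowest value of all 12 pools, and empagliflozin 4 stood above the other empagliflozin pools.

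bnip3lb fell against canagliflozin by 0.35 on the log2 scale (interval of the difference -0.55 to -0.15; limma adjusted p 0.0130), and it passed in all 24 alternatives, with adjusted p of 0.000888 to 0.0442. In the authors' deposited table the false discovery rate was 0.0536. Against control the difference was -0.20 (-0.40 to -0.01; limma adjusted p 0.141). Without control 4 it was -0.30 and passed (limma adjusted p 0.0145). No other single pool left out gave a pass, and without control 2 the limma adjusted p was 0.341. Canagliflozin against control gave 0.15 (-0.05 to 0.35; limma adjusted p 0.723). Its paralogs had other orders of group means. bnip3la was at 29.6 to 36.4 CPM in empagliflozin and 26.5 to 32.5 in control, a log2 difference of 0.20 (limma adjusted p 0.169), and bnip3 at 1.34 to 2.89 CPM over all pools differed by -0.03 (0.921).

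Of 13 other genes of mitophagy and BNIP3 relatives, 1 rose and 2 fell against control, 23.1% of the 13, where 13.3% of all genes were called. fundc2, a paralog of the mitophagy receptor gene fundc1, rose by 0.40, while phb2b, a prohibitin gene, had a difference of -0.36 and optn, for the mitophagy adaptor optineurin, of -0.38 (limma adjusted p 0.0348, 0.00885 and 0.0263). Without control 4 and canagliflozin 4 together, 6 of the 13 passed, 3 up and 3 down, where calls over all genes rose from 1589 to 4246. Only 1 of the 13 passed without any one of controls 1 to 3 or empagliflozin 2 to 4. With 1 pool left out, calls over all genes were 268 to 3033. Against canagliflozin 1 rose and 1 fell, fundc2 by 0.38 and phb2b with -0.36, which is 15.4% beside 25.5% of all genes. Without canagliflozin 4 the count was 6, where leaving out 1 pool gave 1932 to 4234 calls over all genes. Totals for each single pool are not given here, so the counts with 1 pool left out are not read as results about the list. For optn the difference between canagliflozin and control was also -0.36, which did not pass (limma adjusted p 0.493).

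vegfaa encodes the main ligand that drives blood vessel growth in the embryo (Entrez 30682), and is raised by HIF in many tissues. Its level was 6.37, 6.07, 5.01 and 5.80 CPM in controls 1 to 4, a mean of 5.81 ± 0.584 (n = 4). In empagliflozin it was 7.08, 6.69, 6.30 and 6.97 CPM, a mean of 6.76 ± 0.349 (n = 4). In canagliflozin it was 6.26, 5.71, 6.06 and 5.84 CPM, a mean of 5.97 ± 0.244 (n = 4). The empagliflozin pools lay above every canagliflozin pool, by little, and overlapped with control 1.

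vegfaa passed in no comparison. The log2 difference was 0.19 against control (95% interval -0.01 to 0.39; limma adjusted p 0.170), 0.15 against canagliflozin (-0.04 to 0.35; 0.235) and 0.04 for canagliflozin against control (-0.16 to 0.24; 0.956). It passed in 0 of 24 alternatives in each of them. The paralog vegfab, the second Vegfa gene, had its lowest mean where vegfaa had its highest, in empagliflozin. It was at 11.2 to 12.2 CPM in empagliflozin, 13.5 to 15.5 in canagliflozin and 10.9 to 15.5 in control, where 10.9 was control 4. It fell against canagliflozin by 0.29 on the log2 scale (limma adjusted p 0.0434), and the difference of -0.21 from control did not pass (0.158).

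Among 11 other VEGF ligands and receptors, limma, edgeR and DESeq2 each called 0 against control, with 0 at an unadjusted p under 0.05 in limma. Of all genes tested, limma called 13.3% there, and 32.4% had an unadjusted p under 0.05. Against canagliflozin 3 fell and 0 rose, 27.3% of the 11 beside 25.5% of all genes. The 3 were vegfab, kdr, which encodes a VEGF receptor, with -0.27 (limma adjusted p 0.0435), and plxnd1, the vessel guidance receptor gene, with -0.43 (0.0467). These calls were near the threshold: 0 were left without control 1, empagliflozin 1 or 3, or any one of canagliflozin 1 to 3. Leaving out 1 pool gave 1932 to 4234 calls over all genes in that comparison. Totals for each single pool are not given here, so the loss of calls is not read as a result about the list. The summed level of 11 endothelial markers was 261 to 275 CPM in empagliflozin, 257 to 271 in control and 257 to 283 in canagliflozin. In limma 0 of 11 passed against control or against canagliflozin, where 13.3% and 25.5% of all genes were called. An unadjusted p under 0.05 was found for 2 and 3 of the 11, beside 32.4% and 39.2% of all genes.

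**Figure D2:**
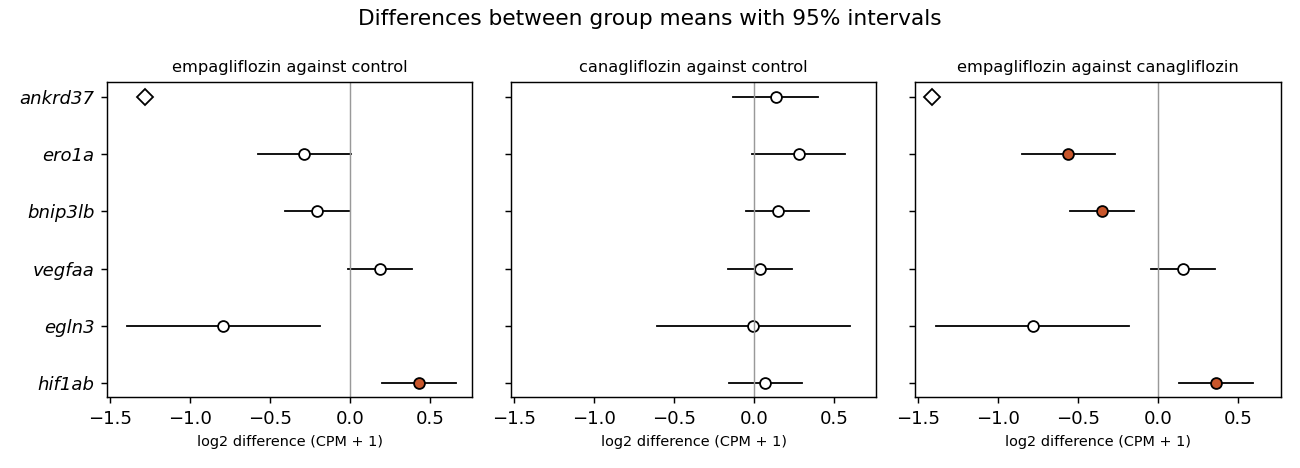
Differences of group means on the log2(CPM + 1) scale for the 6 genes in the 3 comparisons, with 95% intervals from limma. Filled points passed an adjusted p of 0.05, open points did not, and diamonds show ankrd37 in the comparisons with empagliflozin (-1.28 and -1.41), which are not tested. All intervals for canagliflozin against control include 0. ero1a, filled against canagliflozin, reached the minimum of 1 CPM through the canagliflozin pools.

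Within groups, egln3 and ankrd37 varied together. Over the 12 pools, the deviations of log2(CPM + 1) from the group means had a Pearson r of 0.82 and a Spearman rho of 0.74. The lowest control in both genes was control 3 and the lowest canagliflozin pool in both was canagliflozin 1, while empagliflozin 4 was lowest in both among its group. Without canagliflozin 1 and 2, the pools farthest from the median deviation of ankrd37, r was 0.67 and rho 0.62. For ero1a with ankrd37, r was 0.58 and rho 0.66, and without the same pools 0.37 and 0.48. For both pairs of genes, the deviations with those pools left out were still taken from group means that included them. Over the 15 pairs of members r ran from -0.58 to 0.82 with a median of 0.08, so that the genes as a group did not vary as one. The values of a pool share its library, and no p is given.

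**Figure D3:**
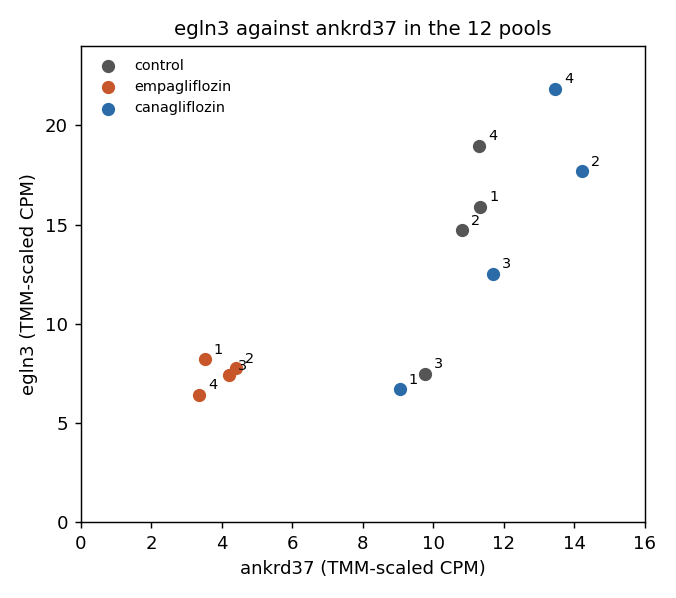
TMM-scaled CPM of egln3 against ankrd37 in the 12 pools, coloured by group and numbered within it. The 4 empagliflozin pools form a cluster at 3.36 to 4.41 CPM of ankrd37, and in the other groups control 3 and canagliflozin 1 are lowest for both genes.

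The genes most like ankrd37 were sought among all others tested by Pearson r of log2(CPM + 1) over the 12 pools. The 8 highest were gpx4a (r = 0.96), pck2 (0.96), g6pca.2 (0.94), plbd1 (0.93), atic (0.93), zgc:136864 (0.93), dpp4 (0.92) and acp5a (0.92). gpx4a encodes a glutathione peroxidase that reduces lipid peroxides, and it was at 301 ± 15.5 CPM in empagliflozin, 412 ± 26.0 in control and 431 ± 17.6 in canagliflozin (n = 4 each). pck2 and g6pca.2 encode enzymes of gluconeogenesis, the mitochondrial phosphoenolpyruvate carboxykinase and a catalytic subunit of glucose-6-phosphatase. g6pca.2 was at 49.9 ± 3.87 CPM in empagliflozin, 73.8 ± 5.28 in control and 83.1 ± 19.0 in canagliflozin (n = 4 each). All 8 had their lowest mean in empagliflozin, and r over levels reads that group difference in large part. Among the members, ero1a had the highest r with ankrd37 (0.83, rank 176 of 11963), then egln3 (0.77, rank 489) and bnip3lb (0.68, rank 1233). hif1ab (-0.68, rank 10905) and vegfaa (-0.73, rank 11199) had a negative r.

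By deviations from group means, which leave out differences between groups, the 5 highest were ablim1a (r = 0.94), qsox1 (0.88), g6pca.2 (0.86), cst14b.1 (0.86) and six6b (0.85), against 0.82 for egln3. g6pca.2 was in both sets. qsox1 encodes a sulfhydryl oxidase that forms disulfide bonds, as ero1a does by another route. ablim1a had its highest mean in empagliflozin (9.89 ± 0.725 CPM, against 7.14 ± 0.346 in control), the group in which ankrd37 had its lowest.

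**Figure D4:**
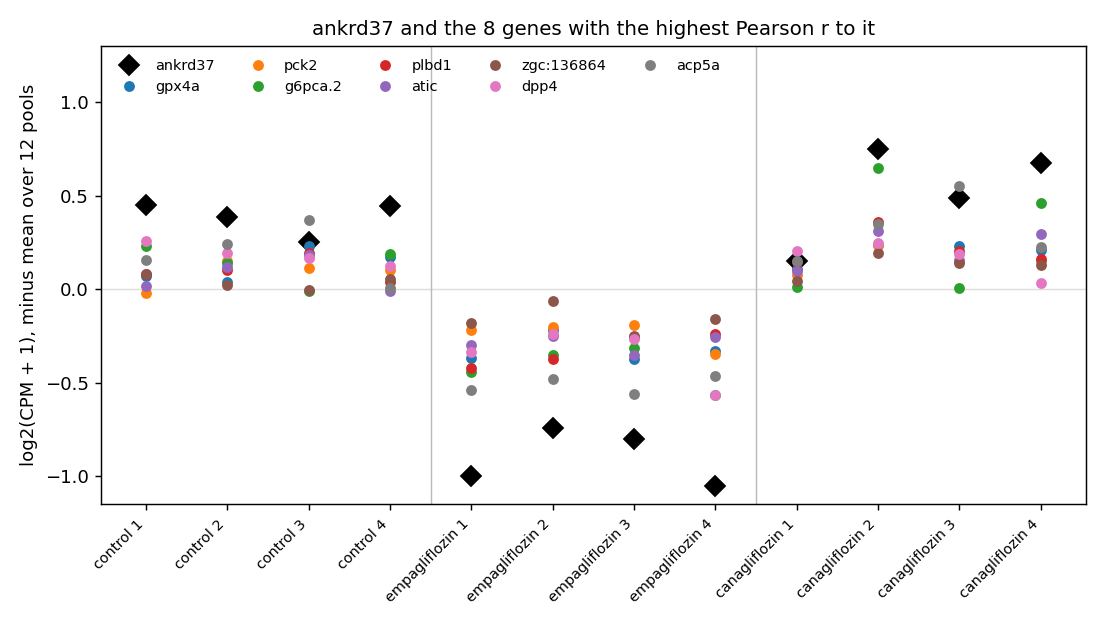
log2(CPM + 1) of ankrd37 (diamonds) and of the 8 genes with the highest Pearson r to it, each minus its mean over the 12 pools. All of them lie below their mean in every empagliflozin pool, which the choice of ankrd37 by its low level there, and of the others by likeness to it, brings with it.

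Other hypoxia-inducible genes outside glycolysis did not share one direction. Of the listed genes 48 were in the table, and without the members 40 were tested. Against control 5 of these rose and 3 fell, 20.0% of the 40, where 13.3% of all genes were called. The median log2 difference was -0.08, against -0.00 over all genes tested. Without control 4 and canagliflozin 4 together, 17 of the 40 passed, 6 up and 11 down. Calls over all genes rose there too, from 1589 with all pools to 4246, and were 268 to 3033 with 1 pool left out. Leaving out 1 pool gave 0 to 12 calls: 0 without control 3, 1 without control 2, 2 without control 1, empagliflozin 1 or empagliflozin 3, and 3 without empagliflozin 2 or 4. The total over all genes for each pool is not given here, so these counts are not read as results about the list. 

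The genes that rose against control were stc2a, kdm6bb, gys1, mxi1 and kdm4b. stc2a, which encodes the secreted glycoprotein stanniocalcin-2, was at 8.39 ± 0.489 CPM in empagliflozin against 5.69 ± 1.03 (n = 4 each; log2 0.50, limma adjusted p 0.0147). kdm6bb, a histone demethylase gene, was at 136 to 158 against 99.8 to 120.4 CPM (log2 0.38, 0.0189), and gys1, for glycogen synthase, at 45.2 ± 5.28 against 33.8 ± 2.79 (log2 0.40, 0.0302). mxi1, a MYC antagonist, rose by 0.33 and kdm4b, a histone demethylase gene, by 0.20. The empagliflozin pools lay above all controls in each of these genes, which had been picked by passing the test on the same pools. Of the 44 listed genes tested, members included, 5 lay wholly higher, where 9.55% of all genes did. For kdm4b the difference of canagliflozin from control was similar in size, 0.18, and did not pass (limma adjusted p 0.541).

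The genes that fell against control were insig2, narfl and plod1a. insig2, which encodes an ER anchor of the cholesterol sensor, was at 8.55 ± 1.24 CPM in empagliflozin against 11.2 ± 0.738 in control (n = 4 each; log2 -0.36, limma adjusted p 0.0365). plod1a, a collagen lysyl hydroxylase gene, was at 78.3 ± 6.40 against 99.1 ± 11.5 CPM (log2 -0.33, 0.0286), and narfl had a difference of -0.35 (0.0267). ddit4, which encodes an mTORC1 inhibitor known as REDD1, was at 18.5 to 23.1 CPM in empagliflozin, 19.9 to 38.8 in control and 24.3 to 49.3 in canagliflozin. Its difference from control, -0.42, did not pass (limma adjusted p 0.145).

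Against canagliflozin 5 of the 40 rose and 7 fell, 30.0% of them, where 25.5% of all genes were called. ddit4 had the largest fall of these, with a difference of -0.78 (95% interval -1.18 to -0.37; limma adjusted p 0.00912). plod1a (-0.49), insig2 (-0.44), wsb1 (-0.42), narfl (-0.33), vegfab (-0.29) and p4ha2, a collagen prolyl hydroxylase gene, (-0.27) were the others. stc2a (0.52), kdm6bb (0.45), gys1 (0.41), mxi1 (0.33) and angptl4 (0.31), which encodes a lipase inhibitor, rose. Without canagliflozin 1, 7 of the 40 passed, and without control 4 and canagliflozin 4 together 20. Calls over all genes were 3049 with all pools, 1932 to 4234 with 1 pool left out, and 4887 without those pools together. The total without canagliflozin 1 alone is not given here, so its count is not read as a result about the list. With canagliflozin against control, limma, edgeR and DESeq2 each called 0 of the 40. In limma 3 had an unadjusted p under 0.05, beside 7.73% of all genes.

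**Figure D5:**
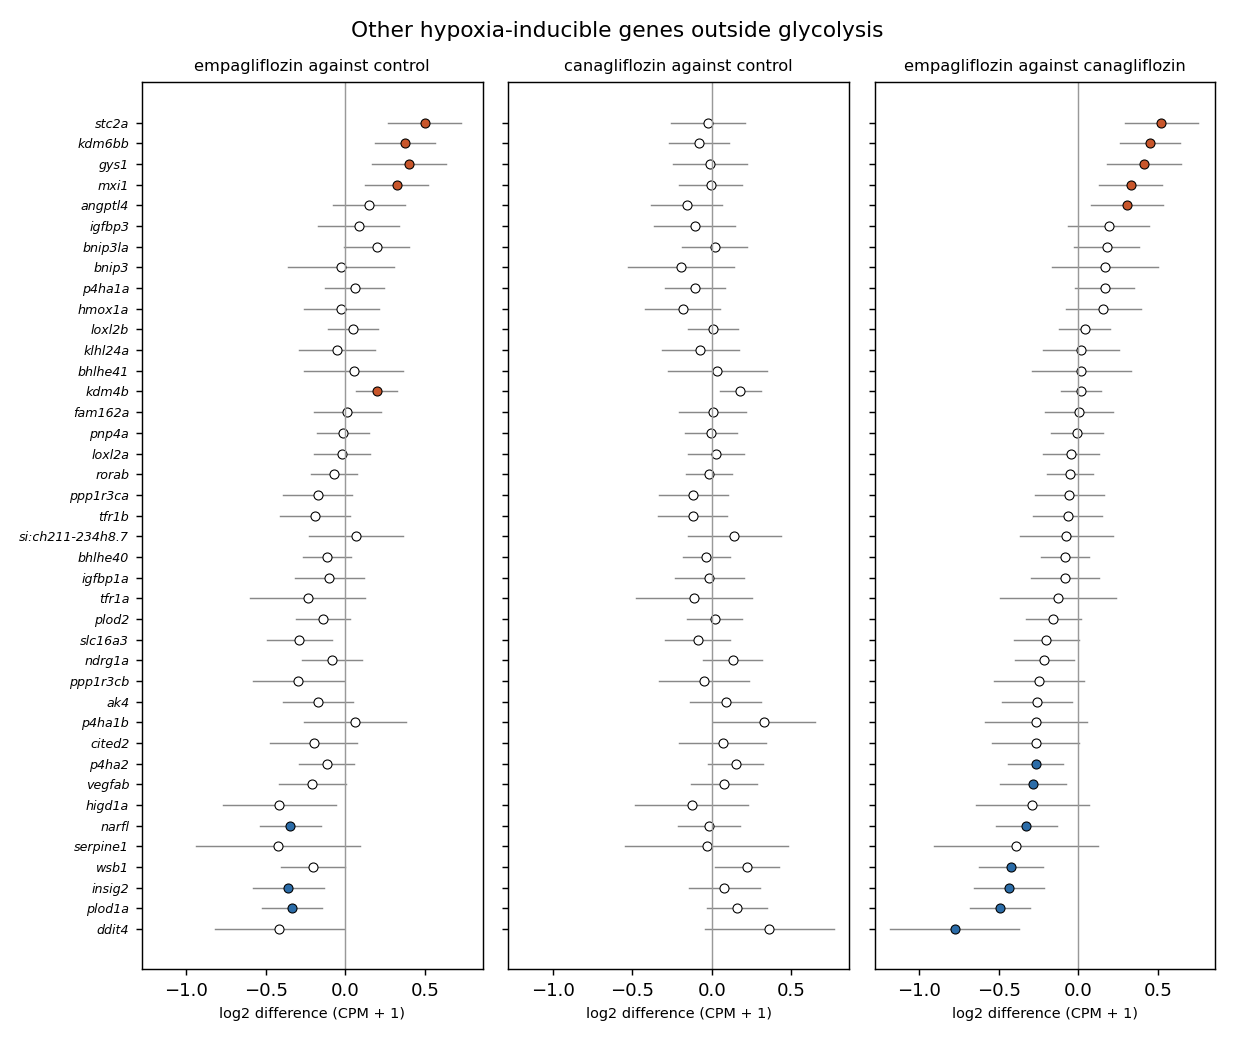
log2(CPM + 1) differences with 95% limma intervals for the 40 other hypoxia-inducible genes outside glycolysis, sorted by the difference between empagliflozin and canagliflozin. Filled points passed an adjusted p of 0.05, orange upwards and blue downwards; calls occur in both directions for empagliflozin and in neither for canagliflozin against control.

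Glycolysis and glucose uptake genes that HIF can raise had more calls between the compounds than against control, as all genes did. Of 29 tested, 1 rose and 1 fell against control, tpi1a by 0.38 and tpi1b with -0.33, copies of the triosephosphate isomerase gene that went opposite ways. The calls were 6.90% of the 29, beside 13.3% of all genes. Without control 4 and canagliflozin 4 together 7 of 29 passed, 1 up and 6 down, where calls over all genes rose from 1589 to 4246. No gene of the 29 passed without any one of controls 1 to 3 or empagliflozin 2 or 3. With 1 pool left out, calls over all genes were 268 to 3033. DESeq2 called 5 of the 29, and its share over all genes is not given here. Against canagliflozin 3 rose and 10 fell, 44.8% of the 29 beside 25.5% of all genes, with a median log2 difference of -0.17 against 0.01 over all genes. Among those that fell, gpia, for glucose-6-phosphate isomerase, had a difference of -0.47, aldoab of -0.42 and slc2a1a, for a HIF-inducible glucose transporter, of -0.33 (limma adjusted p 0.00285, 0.00560 and 0.0488). Without empagliflozin 3 or canagliflozin 3, 8 of the 29 passed, where leaving out 1 pool gave 1932 to 4234 calls over all genes. Totals for each single pool are not given here, so the counts with 1 pool left out are not read as results about the list. Canagliflozin against control gave 0 calls in limma, edgeR and DESeq2, with 9 of 29 at an unadjusted p under 0.05 in limma, beside 7.73% of all genes. slc2a1a was at 23.6 to 30.0 CPM in empagliflozin, 21.1 to 31.1 in control and 29.6 to 36.4 in canagliflozin.

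Markers of other cells were set beside the lower genes. Among 10 tested genes of the yolk syncytial layer and the liver, limma called 5 lower than in control, 6 lower than in canagliflozin and 0 higher. The summed level of the 11 in the table was 17501 to 21466 CPM in empagliflozin, 18908 to 21895 in control and 19173 to 25315 in canagliflozin, and ttr, the scarcest, was at 0 in 1 pool and at most 0.251 CPM. Of 11 myeloid markers 3 fell against control and 2 against canagliflozin, with sums of 216 to 264 CPM in empagliflozin, 236 to 340 in control and 254 to 307 in canagliflozin. Beside these yolk, liver and myeloid counts, 6.41% of all genes were called lower against control and 13.1% against canagliflozin. Sums of 9 erythroid markers (3407 to 4502 CPM in empagliflozin, 4116 to 5129 in control, 4177 to 5025 in canagliflozin) and of 11 somite and muscle markers (17687 to 23501, 19951 to 23413 and 19525 to 22689) overlapped between groups. The part of these markers in the levels of ankrd37, ero1a, bnip3lb and egln3 was not tested.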

How the data were processed

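RNA of 12 embryo pools was sequenced as 50 bp pairs with a stranded mRNA kit, per the labels' protocols. The submitters' processing notes name danRer10, FastQC and R 3.6.1. For aligner and gene counter, no source used here names a tool. The deposited table holds a normalized signal per gene and library. Dividing by the worth of 1 read turned 169608 values, 100% of them, into whole numbers of reads (tolerance 0.001 reads), so the signal is CPM times a scaling factor. The authors' comparison tables, named after ROTS, hold p-values with false discovery rates and a log2 fold change that equals the difference of mean log2(CPM + 1).

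Groups came from sample titles. limma 3.58.1 in R 4.3.3 (lmFit, eBayes with trend) was fitted to log2(CPM + 1) of the 11964 genes with a mean of at least 1 CPM, with 1 mean per group over all 12 pools, two-sided, and Benjamini-Hochberg adjustment over all genes. The other 2170 genes were not tested. Intervals are 95% intervals. edgeR 4.0.16 and DESeq2 1.42.0 were run on recovered reads as alternatives, beside other pseudocounts (0.1 and 5), minimums, normalizations, variance models and pools left out. Clutches are not stated, so the p-values reflect pool-to-pool spread, part of which may be technical.

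The members and gene lists were chosen with earlier results of these data known. Named genes were the members, their paralogs, list genes that passed or had the smallest p, and the genes most like ankrd37; not all are reported. Of 160 genes in the 6 pathway lists, 127 were found by symbol or Entrez ID. Gene positions and sequences were not used here. Same-numbered pools were not taken as pairs.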

Additional observations from a re-analysis of the deposited data

Results flagged for a closer look

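Of 177 groups of 4 pools examined, over 59 named genes, 9 (5.08%) held a pool whose gap to the nearest other made up nearly the whole range of its group. The gap was held to Dixon's 95% critical value, which by its construction about 1 in 20 groups pass by chance; genes share pools here, so the groups are not independent. hif1ab was at 242 CPM in control 4, against 173 to 184 in the other controls, and at 251 CPM in canagliflozin 4, against 183 to 192 in the other canagliflozin pools. bnip3lb was at 39.9 CPM in empagliflozin 4, against 33.4 to 34.1 in the other empagliflozin pools. Among relatives and pathway genes, vhl was at 8.76 CPM in canagliflozin 2, bnip3 at 2.45 and tpi1a at 5.28 CPM in canagliflozin 1, vegfab at 12.2 CPM in empagliflozin 2, mxi1 at 66.5 CPM in control 3 and eno1a at 183 CPM in canagliflozin 2.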

How the results depend on the processing

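Of 535 values recomputed for members and gene totals, 483 kept their direction and their side of the threshold or size. Genes called numbered 1589 for empagliflozin against control, 0 for canagliflozin against control and 3049 for empagliflozin against canagliflozin. Leaving out 1 pool gave 268 to 3033, 0 to 7 and 1932 to 4234, and leaving out control 4 and canagliflozin 4 together gave 4246, 0 and 4887. With canagliflozin against control 925 genes had an unadjusted p under 0.05, edgeR called 0 and DESeq2 29. With a pseudocount of 5, ankrd37 differed by -0.83 and -0.94 on the log2 scale for empagliflozin against control and canagliflozin, through that scale's construction. egln3 passed at -0.79 for both with the replicate block (adjusted p 0.0492 and 0.0371) and with only the compared groups, and against canagliflozin at -0.98 with edgeR and -0.99 with DESeq2. For canagliflozin against control its difference turned positive, at 0.0046 with a pseudocount of 5, 0.0205 with quantile normalization, 0.0340 with edgeR and 0.0436 with DESeq2, never past the threshold. bnip3lb passed against control at -0.30 without control 4 and canagliflozin 4 together. The cause was not tested for these changes. Over single pools left out, the differences against control and against canagliflozin were 0.38 to 0.54 and 0.31 to 0.46 for hif1ab, -1.05 to -0.64 and -1.09 to -0.57 for egln3, and for bnip3lb against control -0.30 to -0.15. For canagliflozin against control they were -0.26 to 0.30 for egln3, -0.0224 to 0.0756 for vegfaa and -0.0326 to 0.18 for hif1ab, never past the threshold. Of 432 counts for pathway lists, 77 moved by over 1.5 times, 53 to fewer calls and 24 to more. The 432 include canagliflozin against control, where every list stayed at 0 calls in all 24 alternatives. All the moves were therefore in the comparisons with empagliflozin. Same-numbered pools correlated at -0.12 to 0.59 in their deviations, 2 of 12 pairs over 0.1, and 3 of 12 pools correlated best with their own number, so the replicate block is given here as an alternative. ero1a could not be tested at a minimum of 5 CPM, and DESeq2 gave it no adjusted p in both comparisons with control. Its 10 to 36 reads per pool limit its precision.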
